A study of Mus musculus with 6 samples.

Results

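Genes of homologous recombination and of the Fanconi pathway were described in mouse oocytes with and without a truncated *Bnc1*. Members were all listed genes whose symbol named a Fanconi group *Fanca* to *Fancm*, a *Rad5x* or *Xrcc* gene, *Brca1*, *Brca2*, *Blm*, *Mre11a*, *Nbn*, *Bard1*, *Palb2*, *Brip1*, *Slx4* or *Rbbp8*, and 36 of the 17577 listed genes are described. Because the choice went by symbol, it also took in 5 genes of other pathways, namely *Xrcc1* of single-strand break repair, *Xrcc4*, *Xrcc5* and *Xrcc6* of end joining, and *Rad54l2*, a helicase that binds the androgen receptor. Germinal vesicle (GV) oocytes, arrested in the prophase of meiosis I, came from 12-week-old C57BL/6 J mice, with 3 libraries from Bnc1tr/tr mice and 3 from wild-type (WT) mice. The tr allele carries a frameshift in exon 4 of *Bnc1*, which encodes the zinc finger protein basonuclin 1, and all cells of a homozygous mouse carry it. The study's methods state that mice were primed with pregnant mare serum gonadotropin, that oocytes were punctured from antral follicles, that littermates were compared, and that cDNA was made from a single oocyte by a modified Smart-seq2 procedure.

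Homologous recombination copies a broken DNA end from an intact sister or homologous chromosome. The MRE11 complex and CtIP trim the end, BRCA1 and BARD1 promote this step, and PALB2 and BRCA2 act with the BCDX2 and CX3 complexes on the single strand that is left. The Fanconi core complex marks the FANCD2 and FANCI pair with ubiquitin at DNA crosslinks, after which nucleases and recombination complete the repair. Oocytes rely on recombination first for meiotic crossovers before birth and later for the upkeep of DNA through a long arrest, and human variants in several of these genes have been tied to early loss of the oocyte reserve.

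Stretches before the transcription start are shown for the called genes that had an entry in the RefSeq promoter table, because the S-phase factors of the E2F family are known regulators of many repair genes. Of the 36 members, 28 had an entry, and the others were *Fancd2*, *Nbn*, *Rad50*, *Rad51d*, *Rad54b*, *Rad54l2*, *Rbbp8* and *Xrcc2*. Each sequence is from GRCm38.p6 by RefSeq, holds the 250 bases that end just before the annotated start, and is written 5′ to 3′ on the strand of the gene. Capitals mark an E2F core, searched on both strands as TTCCCGC or TTGGCGC.
*Bard1*, minus strand, chr1:71102973-71103222: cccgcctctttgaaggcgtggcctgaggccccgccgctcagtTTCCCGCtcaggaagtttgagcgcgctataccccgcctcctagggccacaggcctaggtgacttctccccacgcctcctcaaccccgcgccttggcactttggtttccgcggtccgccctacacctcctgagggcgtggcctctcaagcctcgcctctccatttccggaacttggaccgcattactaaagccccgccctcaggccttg
*Fancb*, plus strand, chrX:164980342-164980591: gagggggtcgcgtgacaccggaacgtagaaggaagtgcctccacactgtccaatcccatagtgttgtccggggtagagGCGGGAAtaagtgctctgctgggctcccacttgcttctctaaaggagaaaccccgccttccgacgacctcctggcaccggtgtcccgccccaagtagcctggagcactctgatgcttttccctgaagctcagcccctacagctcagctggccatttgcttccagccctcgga
*Xrcc6*, plus strand, chr15:82016119-82016368: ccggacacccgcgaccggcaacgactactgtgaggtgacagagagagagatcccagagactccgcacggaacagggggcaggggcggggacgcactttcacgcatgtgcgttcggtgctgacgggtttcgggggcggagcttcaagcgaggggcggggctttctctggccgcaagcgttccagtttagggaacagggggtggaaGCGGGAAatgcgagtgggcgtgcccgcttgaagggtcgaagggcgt

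The starts used for the windows and the gene spans given further on are not the same. The *Xrcc6* window lies inside its gene span, and the other windows overlap the start of theirs. All 3 windows held 1 E2F core, and they belong to genes that moved in different directions, *Bard1* and *Fancb* up and *Xrcc6* down. An E2F core stood in 11 of the 28 matched members (39.3%) against 5.62% of 32851 RefSeq windows of the same length, and of the other 8 members with it, *Brca2*, *Fancm*, *Rad51ap2*, *Rad51c*, *Rad52* and *Xrcc4* were not called in the deposited values, and *Fancf* and *Fancg* were too low to test. The CCAAT box (CCAAT) stood in 60.7% of the members against 33.8% of all windows, and the GC box (GGGCGG) in 60.7% against 32.7%. The cell cycle homology element (TTTGAA) stood in 3.57% of the members, that is in *Bard1* alone, against 16% of all windows. The member shares are per gene, counting a gene if any of its windows held the letters, and the shares of all windows are per window. Of the 31 member windows, 11 held an E2F core, 19 a CCAAT box and 19 a GC box. These shares describe letters in a window and carry no test.

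Values are FPKM, fragments per kilobase of transcript per M (mega) of mapped fragments, which compare genes per length. FPKM totals ran from 657550 to 724550 over the 6 libraries, and depth estimated from the steps of low values ran from 12.2 to 21.2 M fragments. At that depth 3 fragments on a transcript of 1 kilobase equal 0.141 to 0.246 FPKM. The highest depth and the 0.141 FPKM came from WT replicate 3, whose estimate is the least certain. Its steps were the least regular (periodicity 4.09, against 5.76 to 6.51 in the other libraries). *Bnc1* itself stood at 9.04, 6.51 and 5.83 FPKM in the Bnc1tr/tr libraries and 13.2, 12.5 and 16.2 FPKM in the WT libraries. It was lower in every Bnc1tr/tr library and met the limma call rule given further on (log2 fold change −0.89 ± 0.20 (SE), adjusted p = 0.00895). A frameshift of a few bases leaves most of a transcript countable, so these levels do not check the genotype. The 13 oocyte markers were all above 1 FPKM on average and summed to 14929 to 15831 FPKM in Bnc1tr/tr and 17142 to 18722 FPKM in WT. Of these, *Bmp15* and *Mos* were higher in every Bnc1tr/tr library than in any WT library. *Nlrp5*, *Zp2* and *Zp3* were lower in every one, and the remaining oocyte markers, *Dppa3* among them, overlapped between the groups. Summed markers of other cells were low, and most sums were higher in Bnc1tr/tr. The 9 listed granulosa markers summed to 43.3 to 60.5 FPKM against 22.8 to 39.8 FPKM, and the 6 listed theca and stroma markers to 6.12 to 8.53 FPKM against 1.73 to 2.27 FPKM. Single granulosa markers went different ways, since *Fshr*, *Kitl* and *Nr5a2* were higher in every Bnc1tr/tr library than in any WT library, *Cyp19a1*, the most abundant, overlapped at 27.5, 44.4 and 33.5 FPKM in Bnc1tr/tr and 23.5, 29.0 and 17.4 FPKM in WT, and *Inha* stood at 0.18, 1.81 and 0.09 FPKM in Bnc1tr/tr and 6.78, 3.45 and 0.04 FPKM in WT. The 6 immune markers summed to 26.9 and 54.5 FPKM in Bnc1tr/tr replicates 1 and 2, to 1.70 FPKM in Bnc1tr/tr replicate 3 and to 1.39 to 2.94 FPKM in WT, and *Foxl2*, a defining granulosa gene, stood at 0 FPKM in 5 of 6 libraries. Globin genes of red blood cells summed to 1.04 and 10.1 FPKM in Bnc1tr/tr replicates 1 and 2 and were listed at 0 in the other libraries.

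Most of these repair genes were present in WT oocytes, and their levels spanned a wide range. In WT, 23 of 36 members averaged at least 5 FPKM and 18 at least 10 FPKM, and 35 of 36 were above 0 in every library. The Ku80 gene *Xrcc5* stood first among them with a mean of 114 ± 11.3 FPKM (SD, n = 3), above the WT range of every other. Next came *Xrcc4* with 58.2 ± 7.88 FPKM and *Xrcc6* with 55.8 ± 8.92 FPKM, whose ranges overlapped, and then *Brip1* with 39.2 ± 5.73 FPKM, which stayed below both. Below these, the order is loose, since 30 of the 35 pairs of neighbours in the WT order overlapped in range. At the bottom stood *Fancg*, *Fanca*, *Rad54l2* and *Fancf*, which averaged 0.157 to 1.08 FPKM in WT and did not reach a mean of 1 FPKM over the 6 libraries, the minimum for testing.

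**Figure D1:**
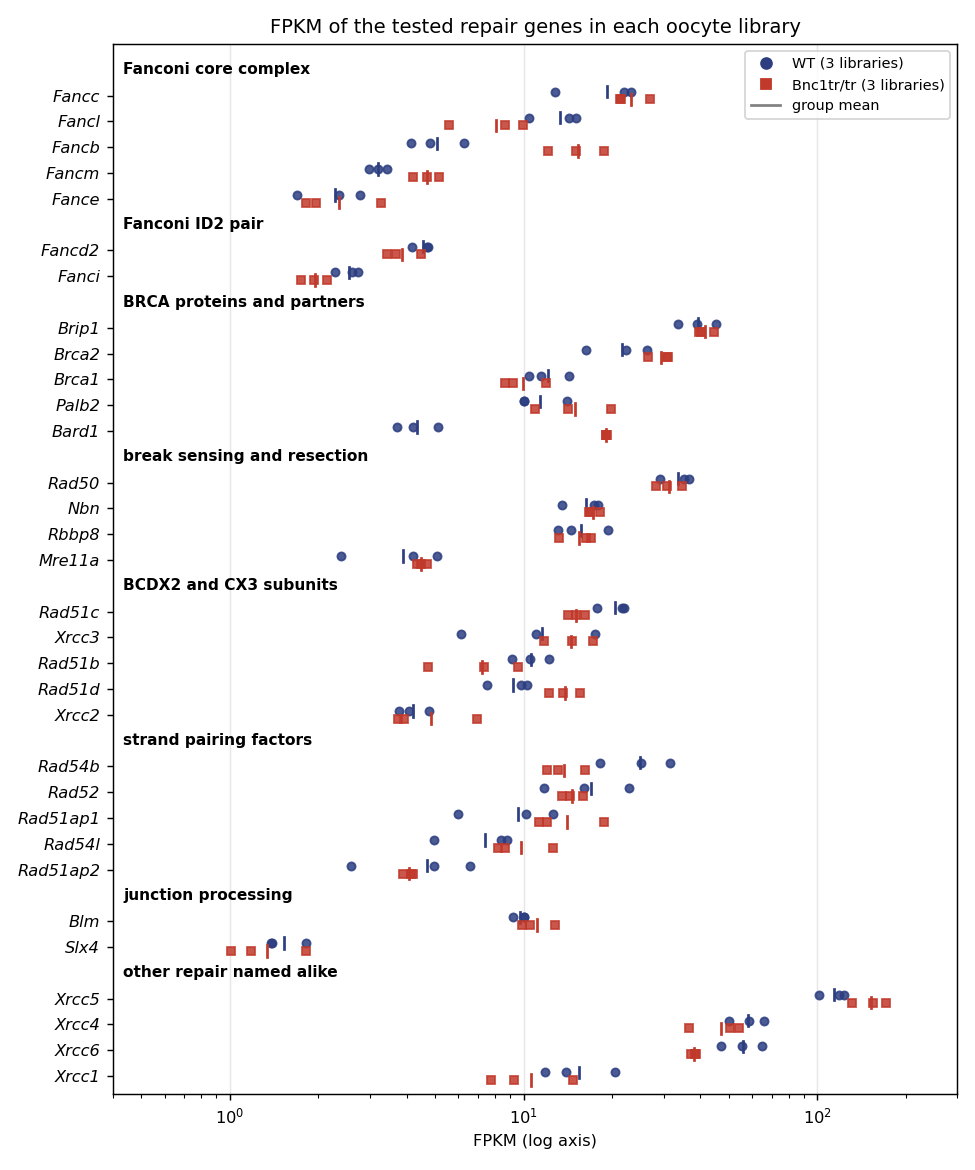
FPKM of the 32 tested repair genes on a log axis, grouped by role, with a blue circle for each WT library, a red square for each Bnc1tr/tr library and a short line at each group mean. Of the genes plotted, *Xrcc5* stands highest in WT with 102 to 123 FPKM, and *Bard1* and *Fancb* show Bnc1tr/tr squares well to the right of the WT circles.

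To find which of these genes differed with the *Bnc1* truncation, the groups were compared with limma on log2(FPKM + 1), over every gene that averaged 1 FPKM or more. A call required an adjusted p (Benjamini-Hochberg) below 0.05 together with a log2 fold change (Bnc1tr/tr minus WT) beyond 0.5 in either direction. Of the 32 members tested, 5 were called (15.6%), against 31.8% of all 10560 tested genes. *Bard1*, *Fancb* and *Rad51d* rose and *Rad54b* and *Xrcc6* fell. Thus 9.38% of the tested members were called higher, against 24.1% of all tested genes, and 6.25% lower, against 7.68% of all. The groups did not overlap in 11 of the 32 (34.4%), against 46.8% of all tested genes. The median log2 fold change of the members was 0.053, and that of all tested genes 0.15. The sign of the members' median hung on single libraries, since it was −0.066 without Bnc1tr/tr replicate 1 and −0.044 without WT replicate 3, and 0.15 without WT replicate 1.

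The direction of small differences hung on the scaling of the libraries. As deposited, 75.8% of all called genes were higher in Bnc1tr/tr, against 50.8% with upper-quartile scaling, 56% with median-ratio factors and 48% once quantile-normalized, and the median of all genes moved from 0.15 to −0.094, −0.047 and −0.091. Lower calls over all 10560 tested genes went from 811 to 1794, 1535 and 1811 in that order. Among the members, the split of 3 higher and 2 lower became 2 higher with 6, 5 and 8 lower under these 3 scalings in that order. Beside the shift over all genes, these counts are not read as a result about the members. *Bard1* and *Fancb* stayed called higher under all 3 scalings. *Rad54b* and *Xrcc6* stayed called lower, whereas *Rad51d* kept its sign but lost its call. *Fancl*, *Rad51c* and *Xrcc1* were called lower under all 3 of these scalings but not in the deposited values, *Rad51b* under the upper-quartile and quantile versions, and *Fancd2* and *Fanci* under the quantile version.

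**Figure D2:**
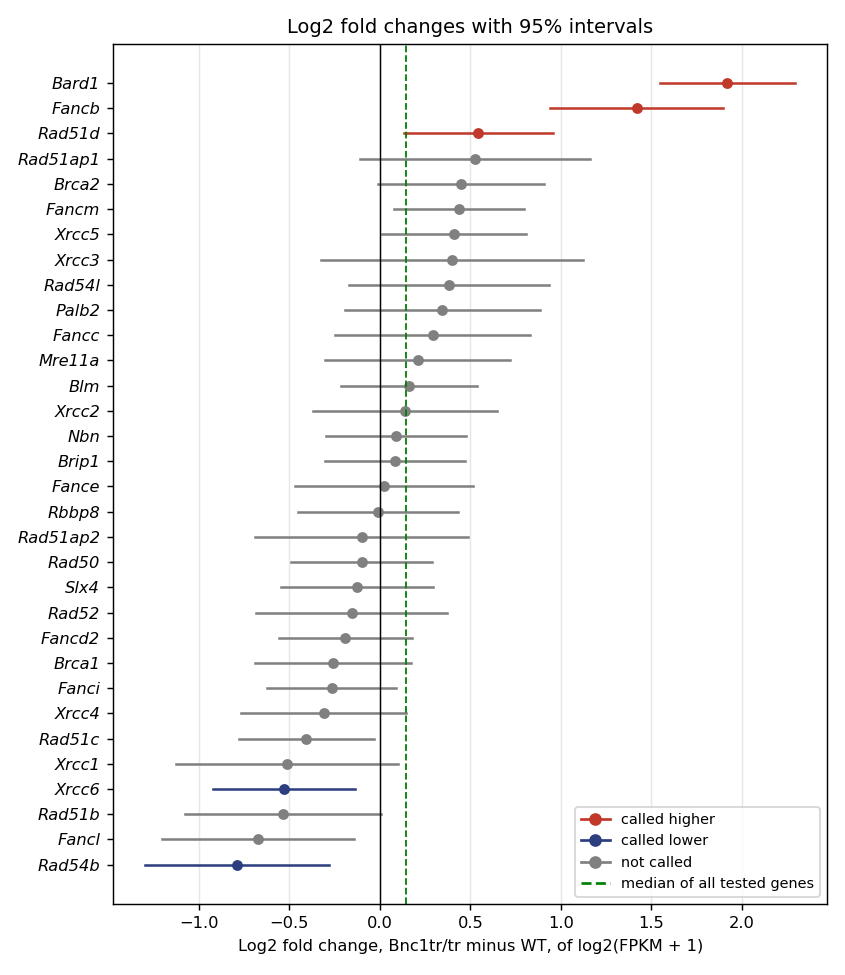
Log2 fold change on the log2(FPKM + 1) scale (Bnc1tr/tr minus WT) of the 32 tested members with 95% intervals from limma, red for genes called higher, blue for genes called lower and grey for the rest. *Bard1* and *Fancb* lie apart at 1.92 and 1.42, and the other 30 lie between −0.79 and 0.54, around the median of all tested genes at 0.15 (dashed).

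**Figure D3:**
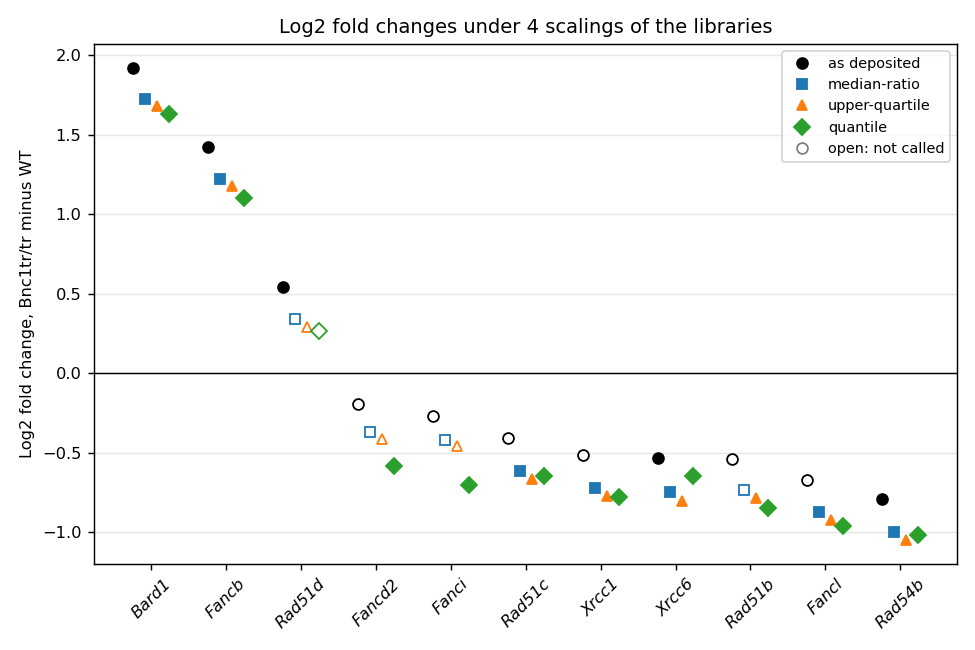
Log2 fold change of each member called under at least 1 of 4 scalings, with the deposited values in black and open symbols where the gene was not called. *Bard1* and *Fancb* are filled and above 0 throughout, *Rad51d* is filled in the deposited values only, and the genes below 0 lie lower after median-ratio and upper-quartile scaling than as deposited.

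Among the BRCA proteins and their partners, 1 of 5 was called (20%), against 31.8% of all tested genes. *Bard1* (chr1:71027535-71103141, here and below on GRCm38.p6 by RefSeq), which encodes the RING partner that BRCA1 needs to be stable and to act as a ubiquitin ligase, stood at 19.2, 19.1 and 19.1 FPKM in the Bnc1tr/tr libraries and 5.10, 3.72 and 4.21 FPKM in the WT libraries. The 3 mutant libraries were nearly the same and all far above the WT libraries, a 4.40-fold difference of the means (log2 fold change 1.92 ± 0.16 (SE), adjusted p = 4.84e-05). *Brca1*, its partner, stood at 8.63, 9.23 and 11.9 FPKM in the Bnc1tr/tr libraries and 10.4, 11.5 and 14.3 FPKM in the WT libraries and was not called (log2 fold change −0.26 ± 0.19 (SE), adjusted p = 0.331). Its groups overlapped, and its 95% interval ran from −0.69 to 0.17. The ratio of *Bard1* to *Brca1* within a library was 2.22, 2.07 and 1.60 in the Bnc1tr/tr libraries and 0.488, 0.324 and 0.294 in the WT libraries. In every WT library *Brca1* exceeded *Bard1* per length, and in every Bnc1tr/tr library *Bard1* exceeded *Brca1*.

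The other genes of this group were not called. *Brca2*, which encodes a large mediator of strand exchange, stood at 30.9, 26.6 and 30.7 FPKM in the Bnc1tr/tr libraries and 26.2, 22.4 and 16.3 FPKM in the WT libraries. All 3 mutant libraries were above all WT libraries by a small margin, but the test did not pass (log2 fold change 0.45 ± 0.20 (SE), adjusted p = 0.122). *Palb2*, which joins BRCA1 to BRCA2, stood at 19.8, 14.1 and 10.9 FPKM in the Bnc1tr/tr libraries and 14.04, 10.03 and 10.01 FPKM in the WT libraries with overlapping groups (log2 fold change 0.35 ± 0.24 (SE), adjusted p = 0.302). *Brip1*, the helicase also known as FANCJ, stood at 44.5, 40.1 and 39.6 FPKM in the Bnc1tr/tr libraries and 45.1, 38.96 and 33.6 FPKM in the WT libraries. Its Bnc1tr/tr values lay within the WT range (log2 fold change 0.083 ± 0.17 (SE), adjusted p = 0.751).

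In the break-sensing and resection group, 0 of 4 genes were called by limma, against 31.8% of all tested genes. By the same limma fit, 0 of 4 had an unadjusted p under 0.05. With 4 genes, these counts are not read as a result about the group. *Rad50*, the ATPase of the MRE11 complex, stood at 34.5, 28.3 and 30.8 FPKM in the Bnc1tr/tr libraries and 35.1, 36.6 and 29.03 FPKM in the WT libraries. *Nbn*, its signalling subunit, stood at 18.2, 16.7 and 16.9 FPKM in the Bnc1tr/tr libraries and 17.9, 17.4 and 13.6 FPKM in the WT libraries. *Rbbp8*, which encodes CtIP, stood at 16.3, 13.2 and 16.97 FPKM in the Bnc1tr/tr libraries and 19.5, 13.1 and 14.6 FPKM in the WT libraries. In each of these genes the groups overlapped, with 95% intervals of the log2 fold change of −0.49 to 0.29 for *Rad50*, −0.30 to 0.47 for *Nbn* and −0.46 to 0.43 for *Rbbp8*. *Mre11a*, the nuclease, was lower per length than both partners, at 2.39 to 5.08 FPKM over the 6 libraries, and its interval was −0.30 to 0.72. The direction of *Nbn* and *Mre11a* was not fixed, since both went from a small positive to a small negative value after upper-quartile scaling.

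Of the 5 subunits of the BCDX2 and CX3 complexes, which help strand invasion begin, *Rad51d* was called, and the others were not (20% called, against 31.8% of all tested genes). *Rad51d* (chr11:82871960-82890624), a subunit of the BCDX2 complex, stood at 15.5, 13.7 and 12.2 FPKM in the Bnc1tr/tr libraries and 10.2, 9.77 and 7.51 FPKM in the WT libraries. The groups did not overlap, and the gene passed narrowly (log2 fold change 0.54 ± 0.18 (SE), adjusted p = 0.0479). Leaving out any 1 of the 6 libraries ended the call (adjusted p = 0.0568 to 0.145). *Rad51c*, shared by the BCDX2 and CX3 complexes, stood at 15.1, 16.1 and 14.2 FPKM in the Bnc1tr/tr libraries and 21.6, 21.9 and 17.7 FPKM in the WT libraries. *Rad51b*, the partner of RAD51C in BCDX2, stood at 4.74, 9.54 and 7.35 FPKM in the Bnc1tr/tr libraries and 9.11, 10.5 and 12.2 FPKM in the WT libraries. Bnc1tr/tr was below WT without overlap in *Rad51c* and with slight overlap in *Rad51b*, and neither was called (log2 fold change −0.41 ± 0.16 (SE), adjusted p = 0.0919 for *Rad51c*, and log2 fold change −0.54 ± 0.24 (SE), adjusted p = 0.119 for *Rad51b*). *Xrcc3*, the other subunit of CX3, stood at 14.6, 11.8 and 17.2 FPKM in the Bnc1tr/tr libraries and 17.4, 11.1 and 6.12 FPKM in the WT libraries. The WT replicates of *Xrcc3* spanned all mutant values, and the 95% interval was −0.33 to 1.12. *Xrcc2*, the last BCDX2 subunit, ranged from 3.75 to 6.92 FPKM with overlapping groups.

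Among the factors of strand annealing and pairing, 1 of 5 was called (20%), against 31.8% of all tested genes. *Rad54b* (chr4:11558920-11615808), a DNA-dependent motor protein, stood at 13.1, 11.98 and 16.2 FPKM in the Bnc1tr/tr libraries and 31.5, 25.1 and 18.2 FPKM in the WT libraries. No mutant value reached the lowest WT value (log2 fold change −0.79 ± 0.22 (SE), adjusted p = 0.0259). The value is uncertain, because by annotation *Rad54b* shares 39.1% of its exonic bases with *Fsbp* on the same strand, and *Fsbp*, a transcription factor gene nested in the locus, went the other way with 4.78, 6.89 and 4.22 FPKM in the Bnc1tr/tr libraries and 0.58, 0.49 and 1.47 FPKM in the WT libraries (log2 fold change 1.79 ± 0.25 (SE), adjusted p = 0.000715). *Fsbp* averaged 0.847 FPKM in WT and 5.30 FPKM in Bnc1tr/tr. It thus passed the minimum mean for testing only through its Bnc1tr/tr values. How fragments of the shared exons were divided between *Rad54b* and *Fsbp* was not given in the sources used here. With 1 library left out, the call of *Rad54b* was kept without Bnc1tr/tr replicate 3 (adjusted p = 0.0351) or WT replicate 3 (adjusted p = 0.00618), and the other 4 ways to leave out 1 library (Bnc1tr/tr replicates 1 and 2 and WT replicates 1 and 2) gave adjusted p = 0.0754, 0.0890, 0.0773 and 0.0821.

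The related *Rad54l*, which encodes RAD54, stood at 12.6, 8.66 and 8.17 FPKM in the Bnc1tr/tr libraries and 8.38, 8.77 and 4.95 FPKM in the WT libraries (log2 fold change 0.38 ± 0.24 (SE), adjusted p = 0.267). *Rad52*, an annealing protein, stood at 13.5, 15.9 and 14.4 FPKM in the Bnc1tr/tr libraries and 22.9, 16.1 and 11.8 FPKM in the WT libraries (log2 fold change −0.16 ± 0.23 (SE), adjusted p = 0.653). *Rad51ap1*, which stimulates strand pairing, stood at 18.8, 12.01 and 11.3 FPKM in the Bnc1tr/tr libraries and 12.6, 10.2 and 6.00 FPKM in the WT libraries (log2 fold change 0.53 ± 0.28 (SE), adjusted p = 0.184). In these 3 genes the groups overlapped, with WT replicate 3 the lowest WT library in each. *Rad51ap2* ranged from 2.58 to 6.55 FPKM, and both extremes were WT libraries.

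In the Fanconi core complex, 1 of the 5 tested genes was called (20%), against 31.8% of all tested genes. *Fancb* (chrX:164980480-164997272), on the X chromosome, encodes the subunit that holds FANCL, the ubiquitin ligase, in the complex. It stood at 15.04, 12.1 and 18.8 FPKM in the Bnc1tr/tr libraries and 4.15, 6.27 and 4.80 FPKM in the WT libraries. Every mutant library had at least 12.1 FPKM and every WT library at most 6.27 FPKM, a 3.02-fold difference of the means (log2 fold change 1.42 ± 0.21 (SE), adjusted p = 0.00112). *Fancl* itself stood at 8.64, 9.92 and 5.56 FPKM in the Bnc1tr/tr libraries and 15.1, 14.3 and 10.4 FPKM in the WT libraries. Here every mutant value was below every WT value, but the gene missed the call by a small margin (log2 fold change −0.67 ± 0.23 (SE), adjusted p = 0.0549). Leaving out Bnc1tr/tr replicate 2 (adjusted p = 0.0498) or WT replicate 3 (adjusted p = 0.0275) made it a call. *Vrk2* on the opposite strand covers 16.5% of the exonic bases of *Fancl*, strand use in counting was not given in the sources used here, and *Vrk2* stood at 4.83, 3.22 and 5.53 FPKM in the Bnc1tr/tr libraries and 3.77, 3.04 and 2.68 FPKM in the WT libraries.

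*Fancc*, a core subunit that works with FANCE and FANCF, stood at 26.9, 21.5 and 21.3 FPKM in the Bnc1tr/tr libraries and 23.2, 21.96 and 12.8 FPKM in the WT libraries and overlapped between groups (log2 fold change 0.29 ± 0.24 (SE), adjusted p = 0.388). *Fancm*, the translocase that anchors the complex on DNA, was above WT in every mutant library at 4.22 to 5.16 FPKM against 2.97 to 3.44 FPKM, and was not called (log2 fold change 0.44 ± 0.16 (SE), adjusted p = 0.0646). *Fance* ranged from 1.69 to 3.28 FPKM with overlapping groups and a log2 fold change of 0.023. The 3 core genes too low to test differed in pattern. *Fanca* was listed at 0.20, 0.32 and 0.42 FPKM in the Bnc1tr/tr libraries and 0.62, 0.76 and 0.84 FPKM in the WT libraries, and its groups did not overlap. *Fancg* was listed at 0.63 to 1.24 FPKM, and *Fancf* at 0 to 0.43 FPKM, near the value of 3 fragments.

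Neither gene of the ubiquitinated pair was called, nor was either gene of junction processing, against 31.8% of all tested genes. *Fancd2* ranged from 3.44 to 4.47 FPKM in Bnc1tr/tr and from 4.17 to 4.72 FPKM in WT (log2 fold change −0.19 ± 0.16 (SE), adjusted p = 0.411), and *Fanci* from 1.75 to 2.14 FPKM against 2.29 to 2.73 FPKM (log2 fold change −0.27 ± 0.16 (SE), adjusted p = 0.229). The *Fanci* groups did not overlap, and *Polg* on the opposite strand covers 13.6% of its exonic bases. *Blm*, the helicase that dissolves double Holliday junctions, stood at 9.91, 10.5 and 12.8 FPKM in the Bnc1tr/tr libraries and 10.03, 9.19 and 10.1 FPKM in the WT libraries (log2 fold change 0.16 ± 0.17 (SE), adjusted p = 0.497). *Slx4*, the scaffold of structure-specific nucleases, ranged from 1.01 to 1.82 FPKM, and the groups overlapped.

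Of the 5 genes of other pathways taken in by name, 4 were tested and *Xrcc6* was called (25% of the tested, against 31.8% of all tested genes). *Xrcc5*, *Xrcc4* and *Xrcc6* had the highest WT means among the members described. *Xrcc6* (chr15:81987833-82040085), which encodes the Ku70 subunit that binds broken ends, stood at 38.5, 38.3 and 37.1 FPKM in the Bnc1tr/tr libraries and 64.9, 55.5 and 47.02 FPKM in the WT libraries. The mutant values lay within 2 FPKM of each other and under all WT values (log2 fold change −0.53 ± 0.17 (SE), adjusted p = 0.0434). The call was kept without WT replicate 3 (adjusted p = 0.0177) and lost without any other single library (adjusted p = 0.0933, 0.0951 and 0.111 without Bnc1tr/tr replicates 1, 2 and 3, and 0.133 and 0.128 without WT replicates 1 and 2), and *Desi1* on the opposite strand covers 9.24% of its exonic bases.

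*Xrcc5*, the Ku80 subunit that pairs with Ku70, stood at 132, 172 and 154 FPKM in the Bnc1tr/tr libraries and 102, 119 and 123 FPKM in the WT libraries. All mutant libraries were above all WT libraries, and the gene was not called (log2 fold change 0.41 ± 0.18 (SE), adjusted p = 0.107). *Xrcc4*, the partner of DNA ligase IV, stood at 36.6, 50.3 and 54.3 FPKM in the Bnc1tr/tr libraries and 50.1, 58.7 and 65.8 FPKM in the WT libraries (log2 fold change −0.31 ± 0.20 (SE), adjusted p = 0.273). *Xrcc1*, the scaffold of single-strand break repair, stood at 14.8, 9.28 and 7.74 FPKM in the Bnc1tr/tr libraries and 20.5, 13.96 and 11.8 FPKM in the WT libraries (log2 fold change −0.51 ± 0.27 (SE), adjusted p = 0.179). Both genes overlapped between the groups. *Rad54l2* was listed at 0.18 to 0.43 FPKM.

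Because a scaling factor of a library cancels in a ratio of 2 genes of that library, ratios between 10 pairs of proteins known to bind each other or to share a complex were compared. The pairs were chosen after the values had been seen, so the ratios are given as a description with no test. The groups did not overlap in 4 of the 10 pairs. Among single tested genes they did not overlap in 46.8%, but that share is of FPKM and not of ratios. No share over ratios of other gene pairs was computed, so the number of such pairs is not read as a result about the pairs as a set. The ratio of *Bard1* to *Brca1* was 1.97 ± 0.321 against 0.369 ± 0.104 (SD, n = 3), with Bnc1tr/tr given first here and in the next values. *Fancb* to *Fancl* gave 1.74, 1.22 and 3.38 in the Bnc1tr/tr libraries and 0.275, 0.439 and 0.461 in the WT libraries. *Xrcc5* to *Xrcc6*, the Ku heterodimer, gave 3.42, 4.49 and 4.17 in the Bnc1tr/tr libraries and 1.57, 2.13 and 2.62 in the WT libraries. These 3 ratios were higher in every mutant library, and the Ku80 transcript exceeded the Ku70 transcript per length in all 6.

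*Fanci* to *Fancd2* differed least among the 4, at 0.505 ± 0.0251 against 0.560 ± 0.0178. The other 6 ratios overlapped between groups. These were *Palb2* to *Brca2* at 0.509 ± 0.144 against 0.533 ± 0.0835, *Rad51c* to *Rad51b* at 2.27 ± 0.798 against 1.97 ± 0.470, *Rad51d* to *Xrcc2* at 3.0 ± 0.704 against 2.19 ± 0.207, *Rad51c* to *Xrcc3* at 1.07 ± 0.275 against 2.04 ± 0.832, *Rad50* to *Mre11a* at 6.96 ± 0.886 against 9.24 ± 2.58 and *Nbn* to *Mre11a* at 3.85 ± 0.313 against 4.45 ± 1.14.

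**Figure D4:**
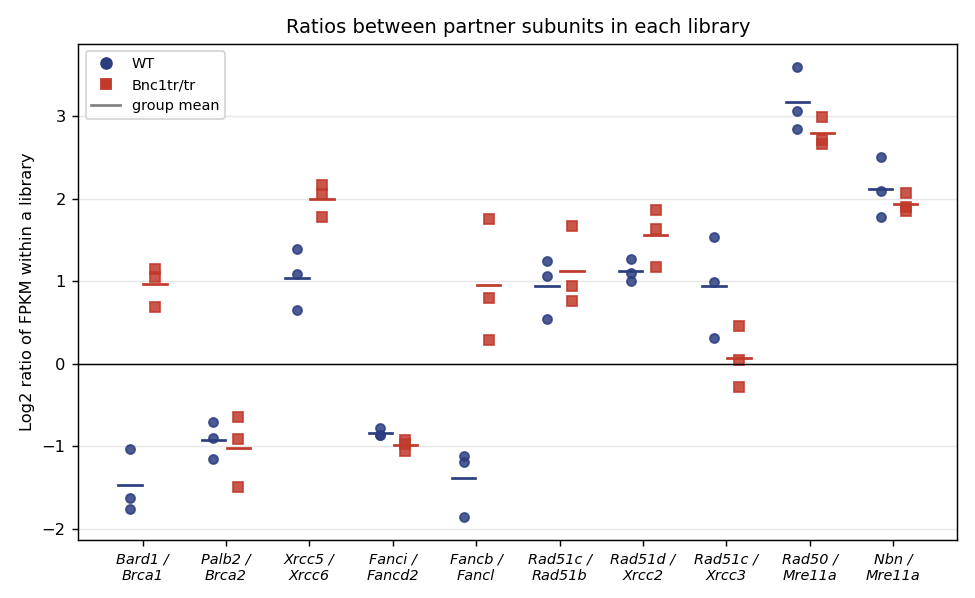
Log2 ratio of the FPKM of 2 partner genes within each library, with blue circles for WT, red squares for Bnc1tr/tr and lines at the means of the log2 ratios. *Bard1* to *Brca1* and *Fancb* to *Fancl* lie below 0 in all 3 WT libraries and above 0 in all 3 Bnc1tr/tr libraries, and *Xrcc5* to *Xrcc6* is above 0 throughout with no overlap between the groups.

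Other genes of these pathways were taken from lists written from general knowledge. Of 17 tested Fanconi partners, 2 rose (11.8%) and 3 fell (17.6%), against 24.1% and 7.68% of all tested genes, with a median log2 fold change of −0.20. *Faap20*, which tethers the core complex to ubiquitin, stood at 7.87, 16.2 and 9.92 FPKM in the Bnc1tr/tr libraries and 37.1, 31.7 and 24.7 FPKM in the WT libraries (log2 fold change −1.42 ± 0.26 (SE), adjusted p = 0.00360). *Fan1*, a crosslink nuclease, stood at 1.26, 2.61 and 1.56 FPKM in the Bnc1tr/tr libraries and 0.27, 0.21 and 0.39 FPKM in the WT libraries (log2 fold change 1.10 ± 0.20 (SE), adjusted p = 0.00368). *Eme2*, a partner of the MUS81 nuclease, stood at 2.54, 3.05 and 2.45 FPKM in the Bnc1tr/tr libraries and 5.45, 9.29 and 4.68 FPKM in the WT libraries (log2 fold change −0.98 ± 0.23 (SE), adjusted p = 0.0126). In these 3 genes no mutant value lay in the WT range, with *Fan1* higher and the others lower. *Fan1* averaged 0.29 FPKM in WT, near the value of 3 fragments on 1 kilobase, and 1.81 FPKM in Bnc1tr/tr. It thus passed the minimum mean for testing only through its Bnc1tr/tr values. *Ercc1*, which forms the XPF nuclease with ERCC4, stood at 20.5, 19.1 and 17.9 FPKM in the Bnc1tr/tr libraries and 30.5, 30.9 and 27.5 FPKM in the WT libraries (log2 fold change −0.60 ± 0.16 (SE), adjusted p = 0.0178). *Rev1*, a translesion polymerase, stood at 14.1, 12.8 and 10.4 FPKM in the Bnc1tr/tr libraries and 9.14, 7.76 and 7.16 FPKM in the WT libraries (log2 fold change 0.57 ± 0.18 (SE), adjusted p = 0.0385).

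The list of 6 BRCA1 complex partners holds 5 subunits of the BRCA1-A complex and *Sem1*, whose product binds BRCA2. It gave 0 calls with limma in the deposited values, against 31.8% of all tested genes, with a median log2 fold change of −0.23. Under the other scalings 2 to 3 of these 6 were called, against 33% to 34.5% of all tested genes. Of 24 tested recombination partners, 1 rose (4.17%) and 2 fell (8.33%), against 24.1% and 7.68% of all tested genes, with a median of −0.011. *Gen1*, a resolvase of Holliday junctions, stood at 10.2, 8.75 and 11.4 FPKM in the Bnc1tr/tr libraries and 5.25, 4.93 and 4.78 FPKM in the WT libraries (log2 fold change 0.88 ± 0.16 (SE), adjusted p = 0.00360). *Bccip*, which binds BRCA2, stood at 29.8, 29.6 and 22.7 FPKM in the Bnc1tr/tr libraries and 44.1, 51.4 and 47.8 FPKM in the WT libraries (log2 fold change −0.79 ± 0.17 (SE), adjusted p = 0.00873). *Rmi1*, which acts with BLM and topoisomerase III alpha, stood at 27.9, 21.4 and 24.6 FPKM in the Bnc1tr/tr libraries and 42.8, 37.6 and 35.4 FPKM in the WT libraries (log2 fold change −0.63 ± 0.17 (SE), adjusted p = 0.0221). *Gen1* was higher in every mutant library, and *Bccip* and *Rmi1* were lower in every one, while *Blm* was not called. Of 4 tested meiotic partners of BRCA2, *Psmc3ip*, which encodes the HOP2 protein of meiotic strand invasion, fell and stood at 55.5, 86.8 and 73.5 FPKM in the Bnc1tr/tr libraries and 104, 115 and 123 FPKM in the WT libraries (log2 fold change −0.68 ± 0.20 (SE), adjusted p = 0.0302). This 1 gene made 25% of the 4 tested, against 7.68% of all tested genes called lower.

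End joining, the pathway that competes with recombination for broken ends, included the called gene with the largest log2 fold change of these lists, *Nhej1*. Of 14 tested genes, 4 rose and 1 fell, with a median log2 fold change of 0.40. *Nhej1*, which encodes the XLF protein that bridges ends with XRCC4, stood at 354, 425 and 319.9 FPKM in the Bnc1tr/tr libraries and 98.9, 86.1 and 90.3 FPKM in the WT libraries. It was more abundant per length than *Xrcc5* in every Bnc1tr/tr library and less abundant in every WT library (log2 fold change 1.98 ± 0.17 (SE), adjusted p = 5.27e-05). *Paxx*, a paralog of XLF that binds Ku, stood at 5.42, 6.48 and 3.0 FPKM in the Bnc1tr/tr libraries and 1.14, 0.29 and 0.43 FPKM in the WT libraries (log2 fold change 1.87 ± 0.28 (SE), adjusted p = 0.00113). *Paxx* averaged 0.62 FPKM in WT and 4.97 FPKM in Bnc1tr/tr, so it too passed the minimum mean for testing only through its Bnc1tr/tr values. *Shld1* and *Shld2*, subunits of shieldin, which limits resection, moved apart. *Shld1* stood at 10.4, 8.42 and 9.13 FPKM in the Bnc1tr/tr libraries and 5.23, 5.67 and 4.75 FPKM in the WT libraries (log2 fold change 0.73 ± 0.16 (SE), adjusted p = 0.00914) and *Shld2* at 9.69, 8.53 and 7.53 FPKM in the Bnc1tr/tr libraries and 12.9, 12.8 and 13.4 FPKM in the WT libraries (log2 fold change −0.56 ± 0.16 (SE), adjusted p = 0.0276). *Polm*, a gap-filling polymerase, stood at 9.96, 8.83 and 9.88 FPKM in the Bnc1tr/tr libraries and 5.90, 4.54 and 7.73 FPKM in the WT libraries (log2 fold change 0.60 ± 0.20 (SE), adjusted p = 0.0449). Per list, 28.6% of tested end-joining genes were called higher and 7.14% lower, close to the 24.1% and 7.68% of all tested genes.

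Added together, the 36 members made up 617 ± 2.31 FPKM in Bnc1tr/tr and 585 ± 50.8 FPKM in WT (SD, n = 3), that is 0.0904 ± 0.0029% and 0.0848 ± 0.0106% of the FPKM total. The sums differed by less than the spread of the WT libraries, and the sum was the lower one in Bnc1tr/tr after each of the 3 other scalings. The difference of 31.9 FPKM was 4.34 FPKM without WT replicate 3 and 54.3 FPKM without WT replicate 1. Without Bnc1tr/tr replicates 1 and 2, which had the highest immune marker sums, an alternative chosen after seeing the data, the log2 fold changes of the called members were 1.92 for *Bard1*, 1.72 for *Fancb*, 0.38 for *Rad51d*, −0.56 for *Rad54b* and −0.57 for *Xrcc6*. That limma fit has 1 mutant library, assumed to vary like the WT libraries, and called 8.33% of all tested genes, *Bard1* (adjusted p = 0.0221) and *Fancb* (adjusted p = 0.0360) among them, with adjusted p = 0.407, 0.385 and 0.255 for the other 3. Whether the markers of other cells have a part in any member's value was not tested. As FPKM are shares of a library and cDNA was primed on the poly(A) tail, a change in the amount of a transcript, in total RNA of the oocyte and in tail length cannot be told apart.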

How the data were processed

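The authors deposited, for each of 6 libraries, gene values in FPKM with 2 decimals for 17577 genes. The submitters' processing notes name HISAT2 2.0.4, Bowtie2 2.2.5, RSEM 1.2.12 and GRCm38.p6. No counts were used. Groups came from the genotype labels. The comparison used limma 3.58.1 (R 4.3.3) and the deposited FPKM as log2(FPKM + 1), a scale that understates changes of low genes. It covered the 10560 genes averaging 1 FPKM or more, over which p-values were adjusted. The study describes the libraries as biological replicates, and the labels do not name the animals, so p-values measure the spread between these libraries. The members and lists were chosen with earlier results of these data known. Of 37 genes matching the rule, 1 is not reported here. Members called, or with a mean of at least 5 FPKM, have all 6 values, and of each other list the called genes are named. Exon overlaps came from GENCODE M21, and gene positions and windows from RefSeq. The fit was tested on simulated data. Alternatives were other pseudocounts, filters, scalings, thresholds and variance models, a replicate block and leaving out libraries. Figures used matplotlib 3.10.9.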

Additional observations from a re-analysis of the deposited data

How the results depend on the processing

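*Bard1* and *Fancb* kept direction and call under each of 16 alternatives and without Bnc1tr/tr replicates 1 and 2. With a pseudocount of 0.1, *Rad51d* and *Xrcc6* were no longer called, without a filter *Rad54b* was not, and with trend and robust variances *Rad51d* was not. Calls among the members numbered 3 with a pseudocount of 0.1, 8 with upper-quartile scaling, 10 with quantile normalization, 2 with an absolute log2 fold change over 1 and 2 without Bnc1tr/tr replicates 1 and 2, an alternative chosen after seeing the data, against 5. Lower calls among them numbered 1 with a pseudocount of 0.1, 1 with no filter, 6 with upper-quartile scaling, 5 with median-ratio scaling, 8 with quantile normalization, 0 with a fold change over 1 and 0 without Bnc1tr/tr replicates 1 and 2, against 2. Of all tested genes, 28.6% were called with a pseudocount of 0.1, 19.4% with no filter and 29.8% with a minimum mean of 5 FPKM. The share was 34.5% with upper-quartile, 33% with median-ratio and 33% with quantile scaling, and 15.9% with a fold change over 1, against 31.8%. Beside these shares, the counts of members and of the partner lists further on are not read as results. Leaving out 1 library gave 2 to 5 member calls, 0 to 3 of them lower, and called 22% to 33.5% of all tested genes. At an unadjusted p under 0.05 from limma, 4 members that were not called stood beside the 5. The share of all tested genes at that threshold is not given here, so this number is not read further.

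Over all genes, 3358 calls became 2046 with a minimum mean of 5 FPKM, 1677 with a fold change over 1 and 880 without Bnc1tr/tr replicates 1 and 2. Higher calls (2547) became 1413, 1418 and 770 in that order and 1670 with quantile normalization. Lower calls (811) became 1794, 1535 and 1811 with upper-quartile, median-ratio and quantile scaling, 259 with a fold change over 1, 110 without Bnc1tr/tr replicates 1 and 2, and 418 to 1041 without 1 library. The cause was not tested.

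The r of deviations was 0.278, −0.0344 and 0.124 for same-numbered libraries and ran from −0.254 to 0.161 for other-numbered ones. These values do not settle whether the numbers mark pairs. The main comparison did not take them as pairs, and a replicate block was run as an alternative. With the replicate block, 3733 genes and 7 members were called, 4 of the members lower, with *Fancl* and *Xrcc1* added, and 1 BRCA1 complex partner.

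Fanconi partner calls (5) were 3 with a minimum mean of 5 FPKM, 2 with a fold change over 1, 0 without Bnc1tr/tr replicates 1 and 2, and 3 to 6 without 1 library. BRCA1 complex partner calls (0) were 3 with upper-quartile, 3 with median-ratio and 2 with quantile scaling, and 0 to 1 without 1 library. Recombination partner calls (3) were 6 with upper-quartile scaling, 5 with quantile normalization, 0 with a fold change over 1, 1 without Bnc1tr/tr replicates 1 and 2, and 2 to 6 without 1 library. End-joining calls (5) were 2 with a fold change over 1, 1 without Bnc1tr/tr replicates 1 and 2, and 3 to 6 without 1 library. Meiotic partner calls (1) were 0 with a pseudocount of 0.1, a fold change over 1 or no Bnc1tr/tr replicates 1 and 2, 2 with no filter, upper-quartile or median-ratio scaling, and 0 to 1 without 1 library.

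The members' median log2 fold change was −0.18, −0.13 and −0.24, and the difference of their summed FPKM −81.3, −58.6 and −39.9, with upper-quartile, median-ratio and quantile scaling. Small log2 fold changes of uncalled members changed sign. With upper-quartile, median-ratio and quantile scaling they were −0.091, −0.041 and −0.13 for *Blm*, −0.19, −0.13 and −0.033 for *Brip1*, −0.17, −0.13 and −0.41 for *Fance*, −0.17, −0.12 and −0.15 for *Nbn* and −0.088, −0.044 and −0.24 for *Xrcc2*, and for *Mre11a* −0.0082 and −0.19 with upper-quartile and quantile scaling. Without 1 library they ran over −0.020 to 0.19 for *Brip1*, −0.17 to 0.13 for *Fance*, −0.034 to 0.39 for *Mre11a*, −0.031 to 0.16 for *Nbn*, −0.40 to 0.14 for *Rad51ap2*, −0.38 to 0.075 for *Rad52*, −0.12 to 0.14 for *Rbbp8* and −0.10 to 0.27 for *Xrcc2*. Without Bnc1tr/tr replicates 1 and 2 they were −0.20 for *Fance*, −0.038 for *Palb2*, 0.12 for *Rbbp8*, 0.16 for *Slx4* and −0.076 for *Xrcc2*.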

Other observations

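WT replicate 3 held the lowest WT value in 21 of the 32 tested members (65.6%), against 49.5% of all tested genes.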
